A study of Mus musculus with 6 samples.

Results

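The collagen genes of the mouse adrenal gland were followed across the stromal, vascular, glial, endocrine and immune nuclei of whole glands. Every gene whose symbol has the form Col, a number, a, a number was taken, which gave 44 genes out of the 30406 whose identifiers stood in all the deposited gene lists. The rule uses symbols only. By the structure of their proteins the 44 divide into 11 fibrillar collagens, 6 basement membrane chains of type IV, 6 beaded filament chains of type VI, 9 fibril-associated collagens, 3 short-chain network collagens, 2 multiplexins, 4 transmembrane collagens and 3 others, among them the anchoring fibril collagen Col7a1.

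Collagens are secreted or membrane proteins in which polypeptide chains wind into a triple helix. Fibrillar collagens build the tension-bearing fibrils of connective tissue, fibril-associated collagens sit on their surface, and type IV collagen forms the sheet-like network of basement membranes under endothelium and around nerve, muscle and gland cells. In the adrenal gland a collagen-rich capsule encloses a steroid-producing cortex and a catecholamine-producing medulla, and a dense sinusoidal vessel bed, mural cells and peripheral glia run through both. Most collagen chains assemble only with set partner chains, so the chains of 1 type are described together.

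The study compared mice knocked out for Tmem127 (KO), whose product sits in endosomal and lysosomal membranes, with wild type mice (WT). All were female, of strain C57BL/6 J and 10-11 months old, and each library came from 1 pair of frozen whole adrenal glands. Nuclei were sorted by DAPI, a DNA dye, and captured with the 10x single cell 3' v3 chemistry. By the labels 2 libraries are KO and 3 are WT, and neither the deleted exons nor any restriction of the deletion to a cell type is stated. The remaining library is titled WT but carries the genotype KO, so it was placed in neither group in the main comparisons and is called the unassigned library. KO and WT below mean the libraries labelled so. Tmem127 itself was at 45.9 and 45.0 CPM (UMIs of the gene per 1000000 UMIs) over all nuclei of the KO libraries and at 38.0, 38.2 and 36.1 CPM in the WT libraries. Since tags come from the 3' end and the deleted part is not given, this level checks no label.

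The files hold counts of unique molecular identifiers (UMIs), each standing for 1 captured RNA molecule. Totals ran from 4825169 UMIs in KO replicate 2 to 43377724 in WT replicate 1, with medians of 1289 to 7675 per barcode, and KO replicate 2 was the shallowest library. After filtering, 21035 nuclei were clustered with the collagen genes left out, and a cluster took a name ending in "-like" only from marker genes. Clusters 3 and 5 stayed unnamed and keep their numbers. Cluster 5 was a stromal population with Pdgfra at 806 CPM and the transcription factor gene Gata4 at 620.5 CPM on average. Cluster 3 carried cortical genes such as Cyp11a1 at 869.9 CPM. The pericyte or smooth muscle-like class passed 8 of 11 markers, but not Rgs5, Acta2 or Kcnj8. It also held the fibroblast marker Pdgfra, at 319 CPM on average against 136 CPM in capsule or fibroblast-like cluster 10. The source of Pdgfra in that class was not tested. Of the classes, 13 had at least 20 nuclei in each KO and WT library. The glial class was small, with 141 nuclei over the 5 libraries, so 1 UMI there was worth 3.66 CPM in WT replicate 1 and 31.1 CPM in KO replicate 2. Between any pair of libraries 2 to 9 barcodes were shared. Levels are CPM of the summed UMIs of a class, and means are given ± SD over the 5 KO and WT libraries (n = 5). Because the classes come from clusters of the same nuclei, differences between classes are descriptions and carry no test.

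Collagen RNA was most abundant in glial, capsular and mural nuclei. The 44 genes together reached 6815 ± 829 CPM in Schwann or sustentacular-like nuclei, 4637 ± 354 CPM in capsule or fibroblast-like nuclei, 4160.0 ± 549.8 CPM in mural (pericyte or smooth muscle-like) nuclei and 3334 ± 198 CPM in cluster 5. Endothelium-like nuclei followed at 1614 ± 117 CPM. The steroid-producing zona fasciculata-like nuclei held 1249 ± 134 CPM and cluster 3 held 1008 ± 73.1 CPM. The chromaffin-like, zona glomerulosa-like and X-zone or inner cortex-like classes had between 729 and 793 CPM. The X-zone or inner cortex-like name rests on 3 of 5 markers, Akr1d1, Cyp2f2 and Thrb, and Akr1c18 and Pik3c2g did not pass. With collagen genes in the clustering, or doublets kept, these nuclei fell in a cluster named zona fasciculata-like. Immune nuclei were lowest, at 509 ± 80.9 CPM in macrophage-like and 418 ± 218 CPM in T or NK cell-like nuclei. In each of the 5 libraries the lowest of these 4 stromal, mural and glial classes lay above endothelium-like nuclei. Of the 44 genes, 11 had their highest mean level in the Schwann or sustentacular-like class, 10 in the capsule or fibroblast-like class, 10 in the pericyte or smooth muscle-like class, 4 in cluster 5 and 1 in endothelium-like nuclei. The remaining 8 peaked in cortical, adipocyte-like or macrophage-like nuclei or in cluster 3. Over all 44 genes, 18 peaked in the same class in each of the 5 libraries, and for 14 the libraries of the highest class did not overlap those of the next.

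**Figure D1:**
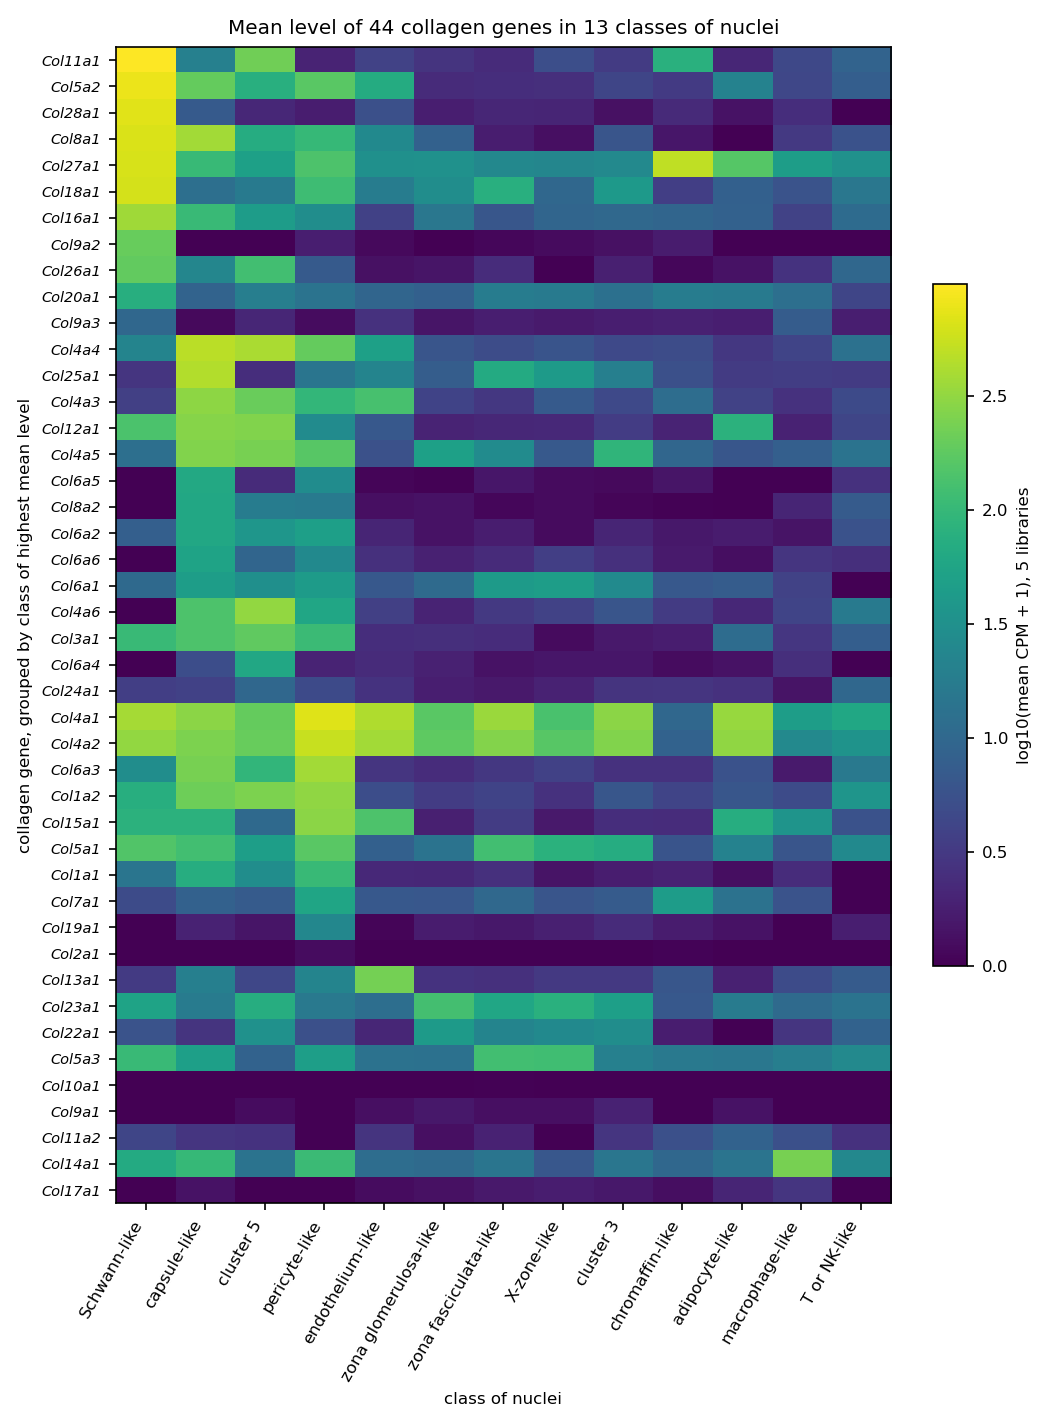
Heat map of the mean level of each of the 44 collagen genes (rows, grouped by the class where the gene is highest) in the 13 classes of nuclei (columns), as log10 of mean CPM over 5 libraries plus 1. A block of 11 genes is brightest in the Schwann or sustentacular-like column. Col4a1 and Col4a2 form rows that are bright in vessel, stromal, glial, cortical and adipocyte-like columns and dimmest in chromaffin-like nuclei.

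Among the fibrillar collagens, type I was highest in the pericyte or smooth muscle-like and stromal classes. Col1a2, which encodes the second chain of the main collagen of connective tissue, was at 222 and 394 CPM (KO) and 376, 271 and 292 CPM (WT) in pericyte or smooth muscle-like nuclei. Cluster 5 had 252 ± 44.8 CPM and capsule or fibroblast-like nuclei 213 ± 14.7 CPM, and the ranges of these classes overlapped. In the unassigned library cluster 5 was the highest class for Col1a2. Endothelium-like nuclei, cluster 3 and the cortical zones did not exceed 16.3 CPM of Col1a2 in any library. Its partner chain Col1a1 had another order of classes, with 105 and 87.6 CPM (KO) and 101, 173 and 45.7 CPM (WT) in pericyte or smooth muscle-like nuclei, 71.5 ± 25.4 CPM in capsule or fibroblast-like nuclei and 28.5 ± 15.2 CPM in cluster 5. WT replicate 2 was the highest mural library and WT replicate 3 the lowest, so KO and WT libraries overlapped. Of the UMIs of both chains, Col1a1 made up 24.7 ± 5.99% in capsule or fibroblast-like nuclei and 10.2 ± 5.11% in cluster 5. Their ranges, 16.6 to 33.3% and 4.17 to 15.6%, did not overlap. Capture can differ between genes, so this share and those of other chain pairs below are compared across classes only. They do not give the relative amounts of the chains.

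Col3a1, the chain of type III collagen of loose connective tissue, was at 112 and 175 CPM (KO) and 207, 130.2 and 278 CPM (WT) in cluster 5. Capsule or fibroblast-like nuclei had 142 ± 26.2 CPM, and the classes overlapped. In the glial class Col3a1 was at 75.6 and 62.2 CPM (KO) and 62.2, 61.9 and 267 CPM (WT), and only WT replicate 3 exceeded 75.6 CPM.

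Type V collagen, which nucleates type I fibrils, was divided among classes by chain. Col5a2 was at 719 and 622 CPM (KO) and 454, 631 and 1537 CPM (WT) in Schwann or sustentacular-like nuclei. WT replicate 3 stood far above the rest, and even the lowest glial library lay above the highest capsule or fibroblast-like one, whose class had 190.1 ± 41.7 CPM. Col5a1 was spread more widely. It was at 252 and 153 CPM (KO) and 171, 150.5 and 106 CPM (WT) in pericyte or smooth muscle-like nuclei, at 151 ± 51.3 CPM in the glial class and at 121 ± 39.3 CPM in zona fasciculata-like nuclei, and these ranges overlapped. Col5a3, the least common chain of the type, was highest in the inner cortex, at 123 and 171 CPM (KO) and 82.3, 115 and 112 CPM (WT) in zona fasciculata-like nuclei and at 123 and 200.2 CPM (KO) and 64.5, 115 and 89.6 CPM (WT) in X-zone or inner cortex-like nuclei. Glial nuclei had 107 ± 58.6 CPM, and these 3 classes did not differ beyond their spread. Col5a2 was nearly missing from the cortex, where zona fasciculata-like nuclei held 2401 UMIs of Col5a1 and 21 of Col5a2. The share of Col5a1 among the UMIs of both genes was 98.7 ± 0.641% there, 38.9 ± 2.57% in capsule or fibroblast-like nuclei, 17.9 ± 6.87% in glial nuclei and 9.72 ± 2.48% (n = 4 libraries with at least 20 UMIs) in endothelium-like nuclei. No library of the cortical classes overlapped one of the stromal, glial or endothelial classes in this share.

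Col11a1 was at 869.9 and 933 CPM (KO) and 1017, 1164 and 888 CPM (WT) in Schwann or sustentacular-like nuclei, and all 5 lay above every library of any other class. Cluster 5 had 219 ± 44.2 CPM and chromaffin-like nuclei 77.3 ± 17.2 CPM, while the other neighbours of the glia were low, with 0.967 ± 1.54 CPM in pericyte or smooth muscle-like nuclei. Col27a1 was at 681 and 435 CPM (KO) and 578, 780.1 and 706 CPM (WT) in glial nuclei and at 591 and 465 CPM (KO) and 431, 626 and 420.0 CPM (WT) in chromaffin-like nuclei, the catecholamine-producing cells of the medulla, and these ranges overlapped. Chromaffin-like nuclei supplied 62.4 ± 4.94% of all Col27a1 UMIs. Adipocyte-like nuclei came next with 156 ± 66.4 CPM, and the cortical zones had 22.3 to 31.1 CPM on average.

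**Figure D2:**
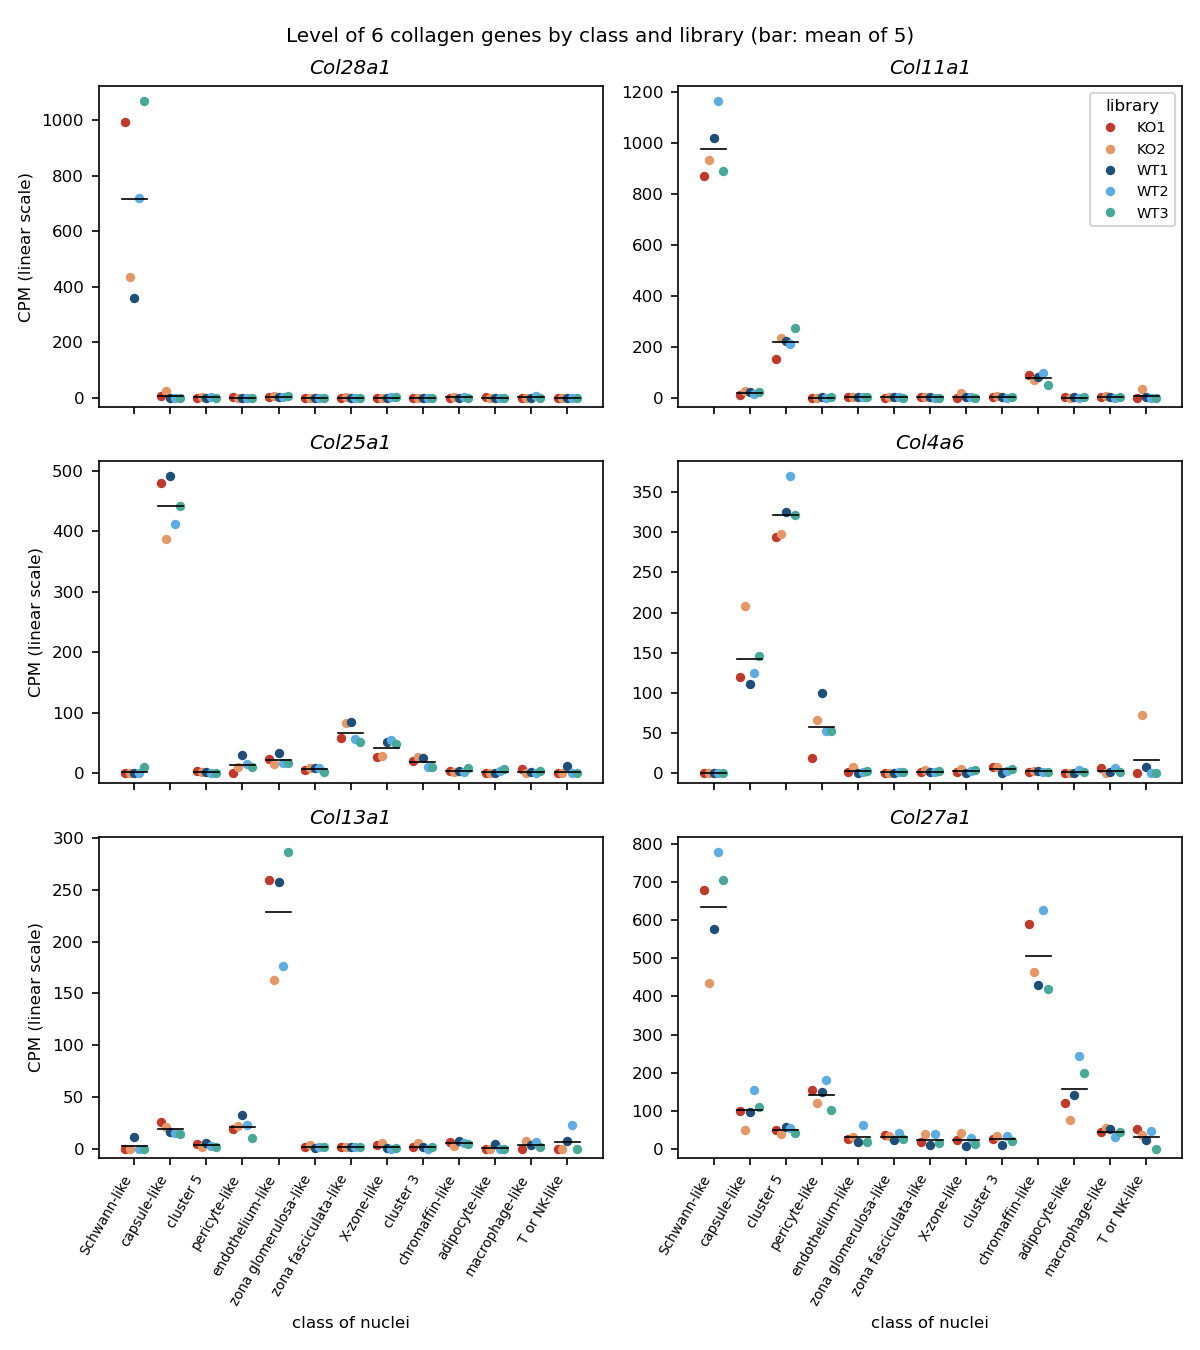
Levels of Col28a1, Col11a1, Col25a1, Col4a6, Col13a1 and Col27a1 (CPM, linear axis from 0, different maximum in each panel) in 13 classes of nuclei; each point is 1 library, KO in reds and WT in blues and green, and each bar the mean of 5. In each panel the 5 points of the highest class or pair of classes stand clear of the remaining classes, and KO and WT points intermingle.

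Type IV collagen is built from 6 chains encoded by 3 pairs of genes that lie head to head. Col4a1 and Col4a2 form the common network of all basement membranes, and Col4a3, Col4a4 and Col4a5 form the network known from the kidney glomerulus, whose loss causes Alport syndrome. The start sites of Col4a1 and Col4a2 lie 21 bases apart on chromosome 8 in RefSeq, those of Col4a5 and Col4a6 1343 bases apart on chromosome X, and those of Col4a3 and Col4a4 72 bases apart on chromosome 1 in GENCODE M21. The 300-base windows from 250 bases before to 50 after the start (RefSeq, GRCm38.p6) are shown because the levels below bear on whether paired genes go together. Capitals mark the CCAAT box (CCAAT), the GC box (GGGCGG) and the TATA box (TATAAA), searched on both strands.
Col4a1 (chr8:11312777-11313076, minus strand): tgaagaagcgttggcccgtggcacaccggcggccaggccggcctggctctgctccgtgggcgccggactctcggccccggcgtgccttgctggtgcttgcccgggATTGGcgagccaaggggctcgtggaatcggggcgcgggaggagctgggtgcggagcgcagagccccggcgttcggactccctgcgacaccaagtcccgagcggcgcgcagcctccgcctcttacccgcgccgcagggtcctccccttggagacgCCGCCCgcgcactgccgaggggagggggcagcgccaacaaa
Col4a2 (chr8:11312555-11312854, plus strand): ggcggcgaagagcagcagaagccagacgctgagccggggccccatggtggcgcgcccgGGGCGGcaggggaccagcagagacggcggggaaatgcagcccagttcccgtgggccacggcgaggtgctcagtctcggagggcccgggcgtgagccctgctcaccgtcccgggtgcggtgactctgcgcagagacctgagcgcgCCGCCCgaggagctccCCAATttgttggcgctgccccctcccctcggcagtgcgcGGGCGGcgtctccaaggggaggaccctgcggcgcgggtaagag
Col4a4 (chr1:82586800-82587099, minus strand): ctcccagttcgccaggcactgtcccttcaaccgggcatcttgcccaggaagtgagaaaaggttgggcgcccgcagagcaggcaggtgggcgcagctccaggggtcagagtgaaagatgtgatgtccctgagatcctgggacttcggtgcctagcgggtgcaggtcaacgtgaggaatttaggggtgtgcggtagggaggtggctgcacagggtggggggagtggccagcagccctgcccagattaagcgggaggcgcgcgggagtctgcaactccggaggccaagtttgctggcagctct
Col4a5 (chrX:141475169-141475468, plus strand): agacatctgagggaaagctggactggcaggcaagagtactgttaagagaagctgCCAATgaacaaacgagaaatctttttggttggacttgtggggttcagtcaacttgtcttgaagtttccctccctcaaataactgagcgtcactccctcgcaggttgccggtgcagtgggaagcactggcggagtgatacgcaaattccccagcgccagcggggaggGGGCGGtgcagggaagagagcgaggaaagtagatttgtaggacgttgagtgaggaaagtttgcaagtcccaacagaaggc
Col4a6 (chrX:141474027-141474326, minus strand): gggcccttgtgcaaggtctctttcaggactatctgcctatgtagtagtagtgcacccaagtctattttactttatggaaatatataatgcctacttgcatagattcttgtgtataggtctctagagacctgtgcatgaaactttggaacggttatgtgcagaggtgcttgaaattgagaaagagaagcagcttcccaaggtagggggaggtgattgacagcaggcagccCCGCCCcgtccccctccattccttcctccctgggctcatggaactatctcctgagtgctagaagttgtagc
The windows of Col4a1 and Col4a2 overlap, and read in opposite directions they hold 1 CCAAT box each, with 1 and 3 GC boxes. The GC box of the Col4a1 window lies in the overlap and is the same site as 1 of the 3 of Col4a2. Their CCAAT boxes are different sites. The Col4a5 window holds 1 CCAAT and 1 GC boxes. The Col4a6 window holds 0 CCAAT and 1 GC boxes. The Col4a4 window holds 0 CCAAT and 0 GC boxes. None of the 5 holds a TATA box. Of 32851 mouse promoter windows of the same length, 37.4% hold a CCAAT box, 35.7% a GC box and 13.6% a TATA box, and of the 35 collagen genes with a window 13, 22 and 5 do. These are matches of letters and not binding sites.

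The common pair was read in most classes. Col4a1 was at 463 and 1008 CPM (KO) and 527, 858 and 651 CPM (WT) in pericyte or smooth muscle-like nuclei, at 427 ± 69.3 CPM in endothelium-like, 382 ± 105 CPM in glial and 343 ± 56.8 CPM in zona fasciculata-like nuclei. The neighbouring classes in this order overlapped. Col4a2 was at 474 and 559 CPM (KO) and 526, 609 and 570.1 CPM (WT) in pericyte or smooth muscle-like nuclei and at 372 ± 53.9 CPM in endothelium-like nuclei, and here the lowest mural library exceeded the highest endothelial one. Chromaffin-like nuclei were the lowest class, with 9.03 ± 3.81 CPM of Col4a1 and 7.76 ± 3.82 CPM of Col4a2. Immune nuclei were also low. Macrophage-like nuclei held 57 and 42 UMIs of the pair in the 3 libraries with at least 20, and T or NK cell-like nuclei had too few for a share. Zona fasciculata-like nuclei supplied 30.6 ± 2.50% of all Col4a1 UMIs, endothelium-like nuclei 17.6 ± 2.76% and pericyte or smooth muscle-like nuclei 5.07 ± 2.20%. Col4a1 made up 44.9 ± 4.25% of the pair's UMIs in X-zone or inner cortex-like nuclei and 55.1 ± 6.28% in pericyte or smooth muscle-like nuclei, and the mean shares of the 12 classes with enough UMIs ran from 44.9 to 58.9%. The share was 40.1 to 50% in X-zone or inner cortex-like libraries and 50.7 to 60.1% in zona fasciculata-like ones, without overlap. The first bases of these genes overlap on opposite strands, and the use of strand in counting is not known here.

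The second pair had its highest levels in capsular and stromal nuclei. By UMIs summed over the 5 libraries, endothelium-like nuclei held more of Col4a3, 1339 against 955 in capsule or fibroblast-like nuclei and 665 in cluster 5. For Col4a4 these counts were 558, 1621 and 1363. Col4a3 was at 318 and 266 CPM (KO) and 358, 339.8 and 247 CPM (WT) in capsule or fibroblast-like nuclei, and cluster 5 followed with 201 ± 41.2 CPM. Col4a4 was at 508 and 383 CPM (KO) and 673, 400.3 and 436 CPM (WT) in capsule or fibroblast-like nuclei and at 405 ± 68.9 CPM in cluster 5, classes that overlapped. Endothelium-like nuclei differed between the chains. They held Col4a3 at 135 and 71.6 CPM (KO) and 140.1, 104 and 195 CPM (WT) but Col4a4 at 59.2 and 14.8 CPM (KO) and 65.1, 41.7 and 67.2 CPM (WT). The share of Col4a3 among the pair's UMIs was therefore 73.3 ± 5.83% in endothelium-like nuclei, against 39.3 ± 4.42% in capsule or fibroblast-like nuclei, 33.1 ± 3.16% in cluster 5 and 32.5 ± 6.5% in pericyte or smooth muscle-like nuclei, and no endothelial library overlapped a stromal or mural one.

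Col4a5 was at 266 and 216 CPM (KO) and 358, 208 and 268 CPM (WT) in capsule or fibroblast-like nuclei, at 236 ± 21.2 CPM in cluster 5 and at 162 ± 30.4 CPM in pericyte or smooth muscle-like nuclei. It was also read in the cortex, with 90.4 ± 10.0 CPM in cluster 3 and 49.3 ± 7.22 CPM in zona glomerulosa-like nuclei, and reached only 4.54 ± 1.41 CPM in endothelium-like nuclei. Col4a6, which joins Col4a5 in the membranes of skin and smooth muscle, was at 294 and 298 CPM (KO) and 325, 369 and 321 CPM (WT) in cluster 5, above every library of the capsule or fibroblast-like class, which had 142 ± 39.2 CPM. In the unassigned library cluster 5 also led, with 291 CPM. No Col4a6 UMI was found among the 596712 UMIs of glial nuclei, which allows a level of up to 5.03 CPM (3 counts). Of the pair's UMIs, Col4a5 made up 42.4 ± 1.96% in cluster 5, 64.7 ± 9.32% in capsule or fibroblast-like nuclei and 91.8 ± 5.24% to 98.0 ± 2.05% in zona fasciculata-like and zona glomerulosa-like nuclei. The start sites of this pair are the farthest apart of the 3, and whether their distance bears on the shares was not tested.

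**Figure D3:**
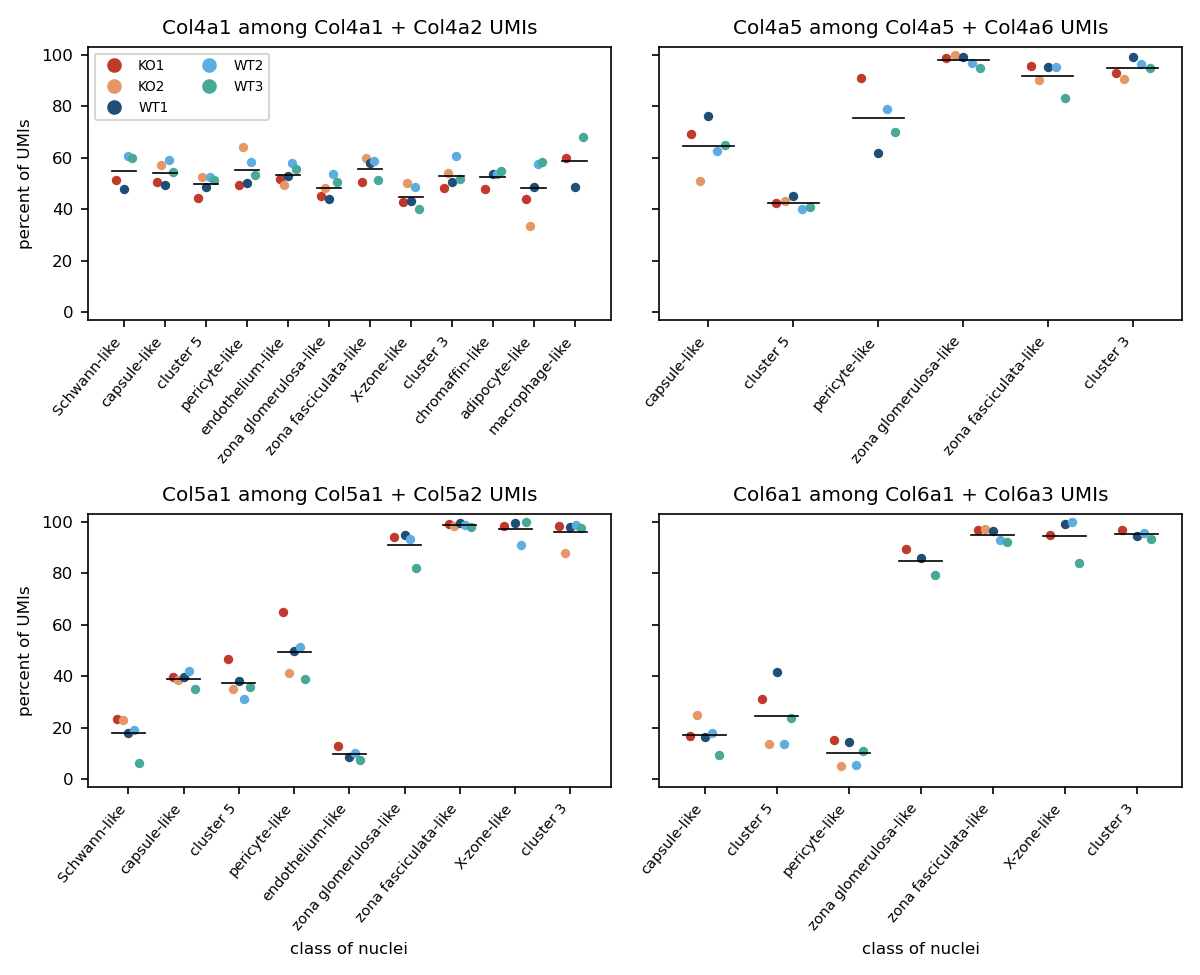
Share of the first-named gene among the UMIs of both genes of a pair (percent, axis from 0 to 100) in the classes with at least 20 such UMIs in 3 or more libraries; points are libraries and bars their means. Col4a1 stays near the middle in all classes, while Col4a5, Col5a1 and Col6a1 lie near the top in cortical classes and lower in stromal classes.

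Type VI collagen forms beaded filaments around cells, from Col6a1, Col6a2 and another chain that can be Col6a3, Col6a4, Col6a5 or Col6a6. Col6a3 had its highest mean in pericyte or smooth muscle-like nuclei, at 335 and 405 CPM (KO) and 448, 399 and 260.4 CPM (WT). Capsule or fibroblast-like nuclei had 234 ± 68.5 CPM, with overlapping ranges, and led in the unassigned library. Col6a2 was low, at 67.8 and 45.8 CPM (KO) and 61.4, 56.6 and 72.2 CPM (WT) in capsule or fibroblast-like nuclei and 48.3 ± 14.7 CPM in pericyte or smooth muscle-like nuclei. Its obligate partner Col6a1 did not share that pattern. It stayed under 50 CPM on average in all classes and lay within the spread in X-zone or inner cortex-like nuclei, at 44.7 ± 15.1 CPM, and capsule or fibroblast-like nuclei, at 45.1 ± 7.62 CPM. In zona fasciculata-like nuclei 924 UMIs of Col6a1 stood beside 8 of Col6a2 and 42 of Col6a3. Col6a1 made up 98.3 ± 2.39% of the Col6a1 and Col6a2 UMIs there and 42.8 ± 7.55% in capsule or fibroblast-like nuclei.

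The alternative chains were split between stromal populations. Col6a4 was at 49.99 and 81.1 CPM (KO) and 27.1, 39.4 and 109 CPM (WT) in cluster 5, and the next class, capsule or fibroblast-like nuclei, had 4.15 ± 3.22 CPM and overlapped with none of them. Cluster 5 supplied 77.5 ± 11.3% of the gene's UMIs. Col6a5 went the other way, at 32.3 and 99.9 CPM (KO) and 56.5, 37.8 and 86.8 CPM (WT) in capsule or fibroblast-like nuclei and 1.33 ± 1.84 CPM in cluster 5. In pericyte or smooth muscle-like nuclei it was at 60.2 and 54.8 CPM (KO) and 5.26, 0 and 17.6 CPM (WT), with both KO libraries above the 3 WT libraries. Col6a6 was at 62.9 and 58.2 CPM (KO) and 35.1, 56.6 and 53.3 CPM (WT) in capsule or fibroblast-like nuclei and at 25.3 ± 22.9 CPM in pericyte or smooth muscle-like nuclei, where only KO replicate 2 exceeded 18.8 CPM.

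Of the 9 fibril-associated collagens, 5 passed 50 CPM in a class. Col12a1, which coats type I fibrils in dense tissue, was at 307 and 233 CPM (KO) and 296, 332 and 230.1 CPM (WT) in capsule or fibroblast-like nuclei and at 261 ± 80.8 CPM in cluster 5, which overlapped. Adipocyte-like nuclei held 124 and 105 CPM (KO) and 27.8, 15.2 and 144 CPM (WT). Col14a1, its close relative, had an unlike distribution. It was highest in macrophage-like nuclei, at 247 and 260.2 CPM (KO) and 223, 263 and 197 CPM (WT), above every library of pericyte or smooth muscle-like nuclei, which had 107 ± 21.2 CPM. In the finer clustering, where a dendritic cell-like cluster of 119 nuclei separated, the macrophage-like level was 268 CPM. The summed markers of capsule or fibroblasts, 13 genes, were at 21.7 CPM (KO) and 37.8 CPM (WT) in macrophage-like nuclei, against 3248 and 3515 CPM in the capsule or fibroblast-like class.

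The glia held the other named fibril-associated collagens. Col9a2, a chain of the type that decorates cartilage fibrils, was at 199 and 279.9 CPM (KO) and 176, 198 and 134 CPM (WT) in Schwann or sustentacular-like nuclei, and no other class exceeded 3.94 CPM in any library. It rested on 131 UMIs over all nuclei of the 5 libraries, of which the glia supplied 85.7 ± 11.0%. Col16a1 was at 709 and 279.9 CPM (KO) and 271, 198 and 353 CPM (WT) in glial nuclei, with KO replicate 1 far above the rest, and at 104 ± 42.5 CPM in capsule or fibroblast-like nuclei. Col20a1 was at 123 and 93.3 CPM (KO) and 22.0, 37.1 and 95.5 CPM (WT) in glial nuclei, where WT replicate 1 overlapped the range of cluster 5. The 4 lower members of the group were Col22a1, at 41.6 ± 5.81 CPM in zona glomerulosa-like nuclei, Col19a1, at 23.4 ± 21.9 CPM in pericyte or smooth muscle-like nuclei and at most 3.84 CPM in any library of another class, Col9a3, at 9.05 ± 11.6 CPM in glial nuclei, and Col9a1, which had 24 UMIs in all. The gene body of Col9a3 overlaps Tcfl5 on the other strand.

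The short-chain collagen Col8a1, a chain of the hexagonal lattice under endothelium of the cornea and of vessels, was at 331 and 1150.5 CPM (KO) and 556, 904 and 334 CPM (WT) in glial nuclei and at 387 and 370.3 CPM (KO) and 475, 370.0 and 245 CPM (WT) in capsule or fibroblast-like nuclei. The classes overlapped, and the unassigned library put the capsule first, at 420.3 against 306 CPM. Its partner Col8a2 had no UMI in glial nuclei, which allows up to 5.03 CPM there. It was at 71.0 and 49.9 CPM (KO) and 60.4, 68.0 and 56.5 CPM (WT) in capsule or fibroblast-like nuclei, which supplied 64.5 ± 6.38% of its UMIs, and at 16.8 ± 8.29 CPM in cluster 5, without overlap. Col10a1, the collagen of cartilage that turns to bone, had 1 UMI in the 5 libraries.

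The multiplexins, proteoglycan-like collagens of basement membrane zones, parted glia from mural cells. Col18a1, the precursor of endostatin, was at 586 and 466 CPM (KO) and 688, 829.6 and 535 CPM (WT) in Schwann or sustentacular-like nuclei, all above any library of pericyte or smooth muscle-like nuclei, which had 115 ± 35.7 CPM. The gene overlaps Slc19a1 on the other strand. Col15a1 was at 237 and 438 CPM (KO) and 394, 361 and 56.3 CPM (WT) in pericyte or smooth muscle-like nuclei, where WT replicate 3 fell far below the rest. It was at 94.1 and 121 CPM (KO) and 148, 223 and 113 CPM (WT) in endothelium-like nuclei, and the glia, capsule and adipocyte-like classes lay between 71.2 and 82.9 CPM on average.

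The 3 transmembrane collagens that reached 50 CPM peaked in 3 different classes. Col13a1, a membrane collagen known from the neuromuscular junction, was at 259 and 163 CPM (KO) and 258, 176 and 287 CPM (WT) in endothelium-like nuclei. The next class had 21.3 ± 8.02 CPM, and endothelium-like nuclei supplied 87.2 ± 5.33% of all Col13a1 UMIs. Col25a1, a membrane collagen first found in amyloid plaques, was at 479 and 387 CPM (KO) and 491, 412 and 441 CPM (WT) in capsule or fibroblast-like nuclei. Cluster 5, the other large stromal population, had 1.44 ± 1.16 CPM, and zona fasciculata-like nuclei, the next in order, 66.8 ± 16.1 CPM. Col23a1 was highest in the outer cortex, at 108 and 158 CPM (KO) and 110.4, 142 and 101 CPM (WT) in zona glomerulosa-like nuclei. X-zone or inner cortex-like nuclei had 78.1 ± 21.9 CPM, with overlapping ranges. The zona glomerulosa-like class, named after the aldosterone-producing zone, joins clusters 2 and 4. Cluster 2 passed all 9 markers. Cluster 4, at 42.0 to 46.4% of the class in the KO and WT libraries, passed 4 of 9, without the aldosterone synthase gene Cyp11b2. Col17a1, the hemidesmosome collagen of epithelia, had 22 UMIs in the 5 libraries.

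Col28a1, a collagen with von Willebrand factor A domains known from peripheral nerve, was a glial gene in these data. It was at 993 and 435 CPM (KO) and 359, 718 and 1069 CPM (WT) in Schwann or sustentacular-like nuclei. The lowest of these libraries stood above 24.96 CPM, the highest value of the next class, which was KO replicate 2 of the capsule or fibroblast-like class. The glia, which were at most 1.19% of nuclei in each library, supplied 75.4 ± 15.4% of the gene's UMIs. Col26a1 was at 189 and 187 CPM (KO) and 238, 210.5 and 115 CPM (WT) in glial nuclei and at 141 and 96.2 CPM (KO) and 103, 173 and 91.8 CPM (WT) in cluster 5, which overlapped. Col7a1, which builds the anchoring fibrils of skin, was at 48.9 and 76.7 CPM (KO) and 67.1, 45.1 and 45.7 CPM (WT) in pericyte or smooth muscle-like nuclei and at 42.2 and 67.7 CPM (KO) and 25.3, 40.4 and 41.2 CPM (WT) in chromaffin-like nuclei. Of the 10 genes under 50 CPM in every class, those not yet given are Col2a1 with 4 UMIs, Col11a2 with 128 and its highest level in adipocyte-like nuclei at 7.63 ± 0.255 CPM, and Col24a1 with 162 and its highest level in cluster 5 at 9.03 ± 1.63 CPM.

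Within the capsule or fibroblast-like class 3 clusters carried different sets. Cluster 10, marked by the WNT agonist gene Rspo3 at 3197 CPM, held Col25a1 at 709 and 703 CPM (KO) and 651, 599 and 765 CPM (WT), against 9.77 ± 11.6 CPM in cluster 14 and no UMI in cluster 20, which allows up to 12.1 CPM. Cluster 10 also led in Col4a3 with 419 ± 34.9 CPM, Col12a1 with 414 ± 51.6 CPM and Col8a1 with 566 ± 95.4 CPM, and for Col12a1 and Col8a1 clusters 14 and 20 did not exceed 118 CPM in any library. Cluster 20, which expressed the adventitial fibroblast gene Pi16 at 568 CPM, held Col14a1 at 948 and 1244 CPM (KO) and 1411, 838 and 594 CPM (WT), above every library of clusters 10 and 14. It also held Col5a2 at 706 ± 108 CPM, Col3a1 at 509 ± 133 CPM, Col6a6 at 333 ± 56.4 CPM and Col5a3 at 381 ± 241 CPM. Col15a1 ranged there from 59.2 to 1257 CPM, on 12 to 26 nuclei per library. The summed collagen level of cluster 20 was 6593 ± 472 CPM.

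Cluster 14 took its class name from only 3 markers and shared several genes with cluster 5. Both held Gata4, at 566 and 620.5 CPM, and Pdgfra, at 836 and 806 CPM, and both held Col4a6, at 294 ± 20.4 CPM and 321 ± 30.1 CPM, against 97.3 ± 55.9 CPM in cluster 10. They parted in Col12a1, at 31.9 ± 21.2 CPM in cluster 14 and 261 ± 80.8 CPM in cluster 5, and in Col4a1, at 513 ± 211 CPM and 190.5 ± 7.36 CPM, and in neither gene did their libraries overlap. In the coarser clustering the nuclei of cluster 5 joined the capsule or fibroblast-like class, which then had Col25a1 at 205 CPM.

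Endothelium-like nuclei also divided. Col13a1 was at 319 and 255 CPM (KO) and 429, 299 and 584 CPM (WT) in cluster 8, at 243 ± 54.1 CPM in cluster 1 and at 62.7 ± 30.2 CPM in cluster 11, but at 10.3 ± 20.9 CPM in cluster 16. Cluster 16, led by Scin, Bmx and Prom1, instead held Col5a2 at 626 and 358 CPM (KO) and 976, 402 and 752 CPM (WT), Col8a1 at 231 ± 119 CPM and Col18a1 at 153 ± 50.5 CPM. In the other endothelial clusters Col5a2 did not pass 51.3 CPM in any library. Col15a1 was highest in cluster 1, with 124 and 168 CPM (KO) and 216, 329 and 168 CPM (WT), and the other 3 clusters averaged 1.87 to 64.5 CPM. Col4a3 was lowest in cluster 16, at 8.62 ± 14.1 CPM, and averaged 128 to 176 CPM in the other endothelial clusters. Chromaffin-like nuclei formed 2 clusters, of which cluster 6, with the adrenaline-forming enzyme gene Pnmt among its markers, had Col7a1 at 54.2 ± 17.5 CPM and cluster 15, without it, 8.40 ± 5.30 CPM, with no overlap of libraries.

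**Figure D4:**
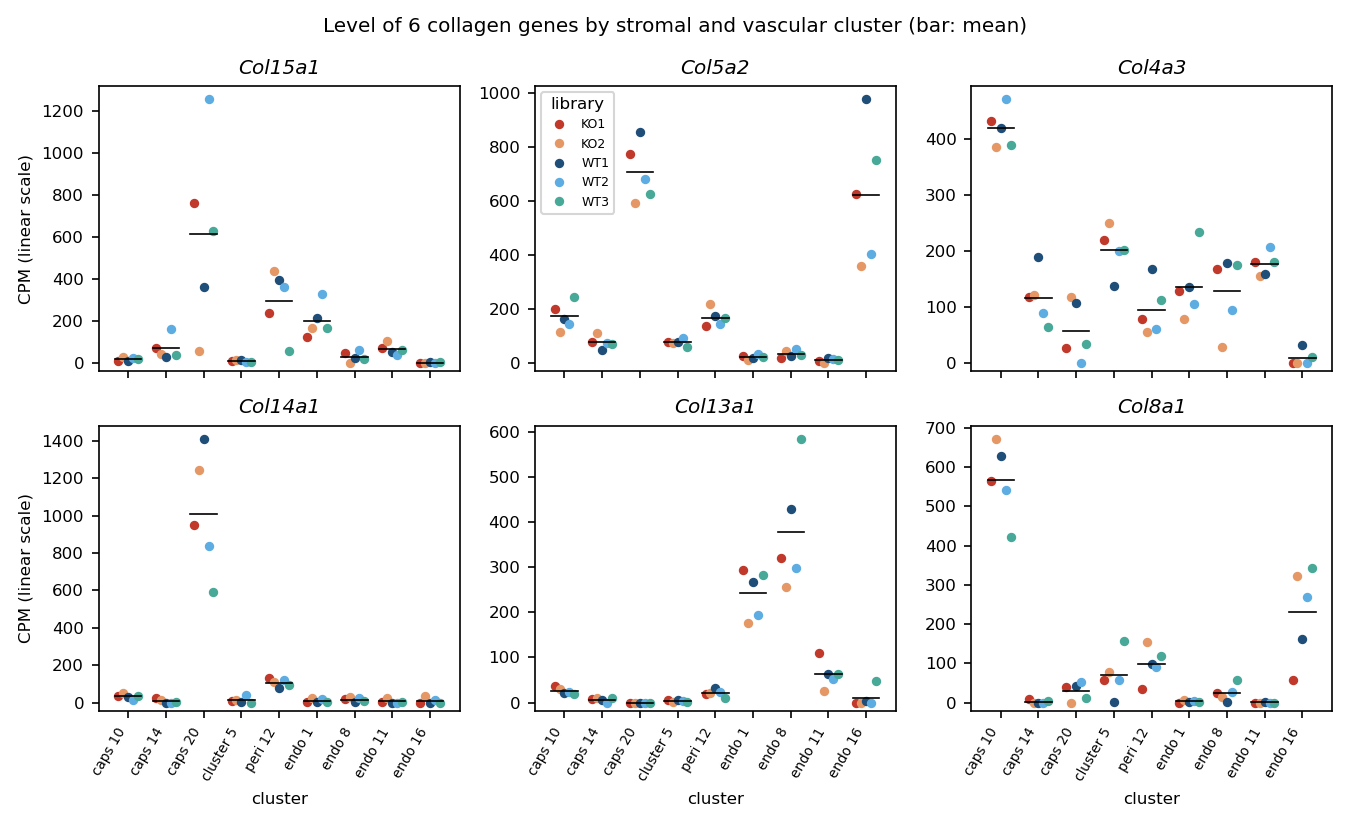
Levels of Col15a1, Col5a2, Col4a3, Col14a1, Col13a1 and Col8a1 (CPM, linear axis from 0) in the 3 capsule or fibroblast-like clusters (caps), cluster 5, the pericyte or smooth muscle-like cluster (peri) and the 4 endothelium-like clusters (endo); points are libraries and bars their means. Col5a2 is highest in capsule or fibroblast-like cluster 20 and endothelium-like cluster 16, and Col14a1 stands highest in cluster 20.

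The enzymes and partners that make, export, cross-link and bind collagen peaked in several classes. Of the 13 genes of procollagen cleavage and cross-linking, 7 peaked in pericyte or smooth muscle-like nuclei, among them the lysyl oxidase Loxl2, at 293 and 427 CPM (KO) and 301, 376 and 475 CPM (WT), and the procollagen N-proteinase Adamts2, at 288 ± 72.3 CPM. Loxl2 in capsule or fibroblast-like nuclei was at 145 ± 34.4 CPM, below every mural library. The tolloid-like proteinase Tll1 was instead endothelial, at 356 ± 108 CPM. Of the 15 small proteoglycans and fibril partners, 6 peaked in capsule or fibroblast-like nuclei, among them decorin, Dcn, at 253 ± 47.5 CPM, and periostin, Postn, at 452 ± 125 CPM, and 4 in pericyte or smooth muscle-like nuclei. Elastin, Eln, was glial, at 889 and 404 CPM (KO) and 1153, 1139 and 849.6 CPM (WT), against 108 ± 31.3 CPM in pericyte or smooth muscle-like nuclei. Cluster 5 held the highest fibrillin 2, Fbn2, at 362 ± 71.7 CPM.

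Of the 10 collagen receptors, 4 peaked in pericyte or smooth muscle-like nuclei, among them the integrin gene Itga1, at 718 ± 231 CPM. The receptor kinase gene Ddr2 was at 370.3 ± 55.9 CPM in capsule or fibroblast-like nuclei and its relative Ddr1 at 97.7 ± 18.9 CPM in chromaffin-like nuclei. Lair1, an inhibitory collagen receptor of leukocytes, was at 484 ± 69.1 CPM in macrophage-like nuclei. The 16 other basement membrane genes were spread over 7 classes, 4 of them glial and 3 each in capsule or fibroblast-like nuclei and cluster 5, where the laminin gene Lama1 was at 424 ± 50.8 CPM. The 12 chaperone and export genes peaked in 6 classes. The collagen chaperone gene Serpinh1 was at 39.9 ± 13.6 CPM in the glia, 38.5 ± 11.7 CPM in pericyte or smooth muscle-like and 37.3 ± 7.93 CPM in endothelium-like nuclei, which did not differ beyond their spread. Among the 14 hydroxylases and glycosyltransferases measured, the prolyl 3-hydroxylase P3h2 was glial, at 703 ± 369.7 CPM, and the collagen galactosyltransferase Colgalt2 endothelial, at 395 ± 47.4 CPM against 48.7 ± 11.4 CPM in the next class.

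No collagen gene passed the test between KO and WT in any class, and DESeq2, run as an alternative, called 0 as well. edgeR's quasi-likelihood test was fitted on the summed counts of each class, with a term for the gene annotation used by Cell Ranger, and p-values were adjusted over all genes tested. With 2 KO and 3 WT libraries, the SE of a collagen fold was typically 0.26 to 0.65 on the log2 scale, so modest differences were not detectable. Nothing in the labels says how the mice were related, and the p-values measure the spread between these libraries.

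In capsule or fibroblast-like nuclei, 29 of the 44 genes passed the filter on low counts, 0 had an adjusted p under 0.05 (against 0% of all genes tested) and 2 had an unadjusted p under 0.05 (against 4.1%). The smallest p belonged to Col5a3, which was at 88.8 and 49.9 CPM (KO) and 9.74, 34.0 and 53.3 CPM (WT). WT replicate 1 was the lowest, WT replicate 3 lay above KO replicate 2, and the groups overlapped. Its log2 fold was 1.5 ± 0.51 (SE), with an adjusted p of 0.999 by edgeR. The value rested on KO replicate 1 against WT replicate 1, the libraries that share an annotation. It was 0.11 without KO replicate 1 and 0.13 without WT replicate 1. With the annotation term both fits set KO replicate 2 against WT replicates 2 and 3, so they are not independent. Col5a3 was called without KO replicate 2, at 3.1, where the term leaves KO replicate 1 against WT replicate 1 alone. It was also called without WT replicate 2, at 1.49 (edgeR adjusted p = 0.0217), and without WT replicate 3, at 2.16 (edgeR adjusted p = 0.00347). In the same fit without KO replicate 2, Col15a1 was called too, at 1.93. Cluster 20, where Col5a3 is highest, made up 14.5 and 7.11% (KO) and 5.91, 9.33 and 8.87% (WT) of the class, and its part in the fold was not tested. The next genes were Col14a1, with a log2 fold of 0.71 ± 0.26, and Col3a1, with 0.42 ± 0.23, both without an adjusted call. Col14a1 was at 144 and 121 CPM (KO) and 84.7, 68.0 and 78.5 CPM (WT), so both KO libraries lay above the 3 WT libraries, and it too is highest in cluster 20.

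In cluster 5, 25 of the 44 genes passed the filter on low counts, 0 had an adjusted p under 0.05 (against 0.0123% of all genes tested) and 3 had an unadjusted p under 0.05 (against 5.86%). The 3 smallest p-values belonged to Col4a3, with a log2 fold of 0.45 ± 0.19, Col3a1, with -0.56 ± 0.26, and Col16a1, with -0.73 ± 0.34. Col4a3 was at 219 and 249 CPM (KO) and 137, 199.9 and 201 CPM (WT), with the KO libraries above all WT libraries. Col8a1 was called when KO replicate 2 was left out, at 4.33 (edgeR adjusted p = 2.04e-05). That value sets KO replicate 1, at 57.8 CPM, against WT replicate 1, at 2.58 CPM, while the other WT libraries had 57.5 and 157 CPM.

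In pericyte or smooth muscle-like nuclei, 22 of the 44 genes passed the filter on low counts, 0 had an adjusted p under 0.05 (against 0% of all genes tested) and 2 had an unadjusted p under 0.05 (against 3.15%). Col6a5, whose values are given above, had a log2 fold of 2.86 ± 0.88 on 30 UMIs. Col4a3 had -0.96 ± 0.41 and Col4a4 -0.72 ± 0.35. Col4a3 was at 79.0 and 54.8 CPM (KO) and 167, 60.2 and 113 CPM (WT), and the groups overlapped. In endothelium-like nuclei, 21 of the 44 genes passed the filter on low counts, 0 had an adjusted p under 0.05 (against 0.00949% of all genes tested) and 2 had an unadjusted p under 0.05 (against 3.38%). Col5a2 was at 58.6 and 39.5 CPM (KO) and 76.2, 71.3 and 92.5 CPM (WT), with both KO libraries below all WT libraries, and had a log2 fold of -0.66 ± 0.25 (edgeR adjusted p = 0.999). Within cluster 16, where Col5a2 is highest among endothelial clusters, the fold was -0.64 ± 0.35, and within cluster 1 it was -0.11 ± 0.46. Col14a1 had 1.65 ± 0.73, and Col15a1 -0.56 ± 0.26. Col15a1 was called without WT replicate 3, at -0.76 (edgeR adjusted p = 0.0429), and its fold was -0.69 in cluster 1 and 0.30 in cluster 8. The fits within clusters were chosen after seeing the data.

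In Schwann or sustentacular-like nuclei, 15 of the 44 genes passed the filter on low counts, 0 had an adjusted p under 0.05 (against 0% of all genes tested) and 1 had an unadjusted p under 0.05 (against 3.86%). Col28a1, at 714 CPM on average in KO and 715 CPM in WT, had a log2 fold of 0.33 ± 0.38, and Col11a1, at 901 and 1023 CPM, had -0.16 ± 0.33. The 3 smallest p-values belonged to Col16a1, with 0.86 ± 0.39, Col5a1, with 0.93 ± 0.48, and Col20a1, with 1.52 ± 0.98. Without KO replicate 1, its highest library, Col16a1 had a log2 fold of -0.06.

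**Figure D5:**
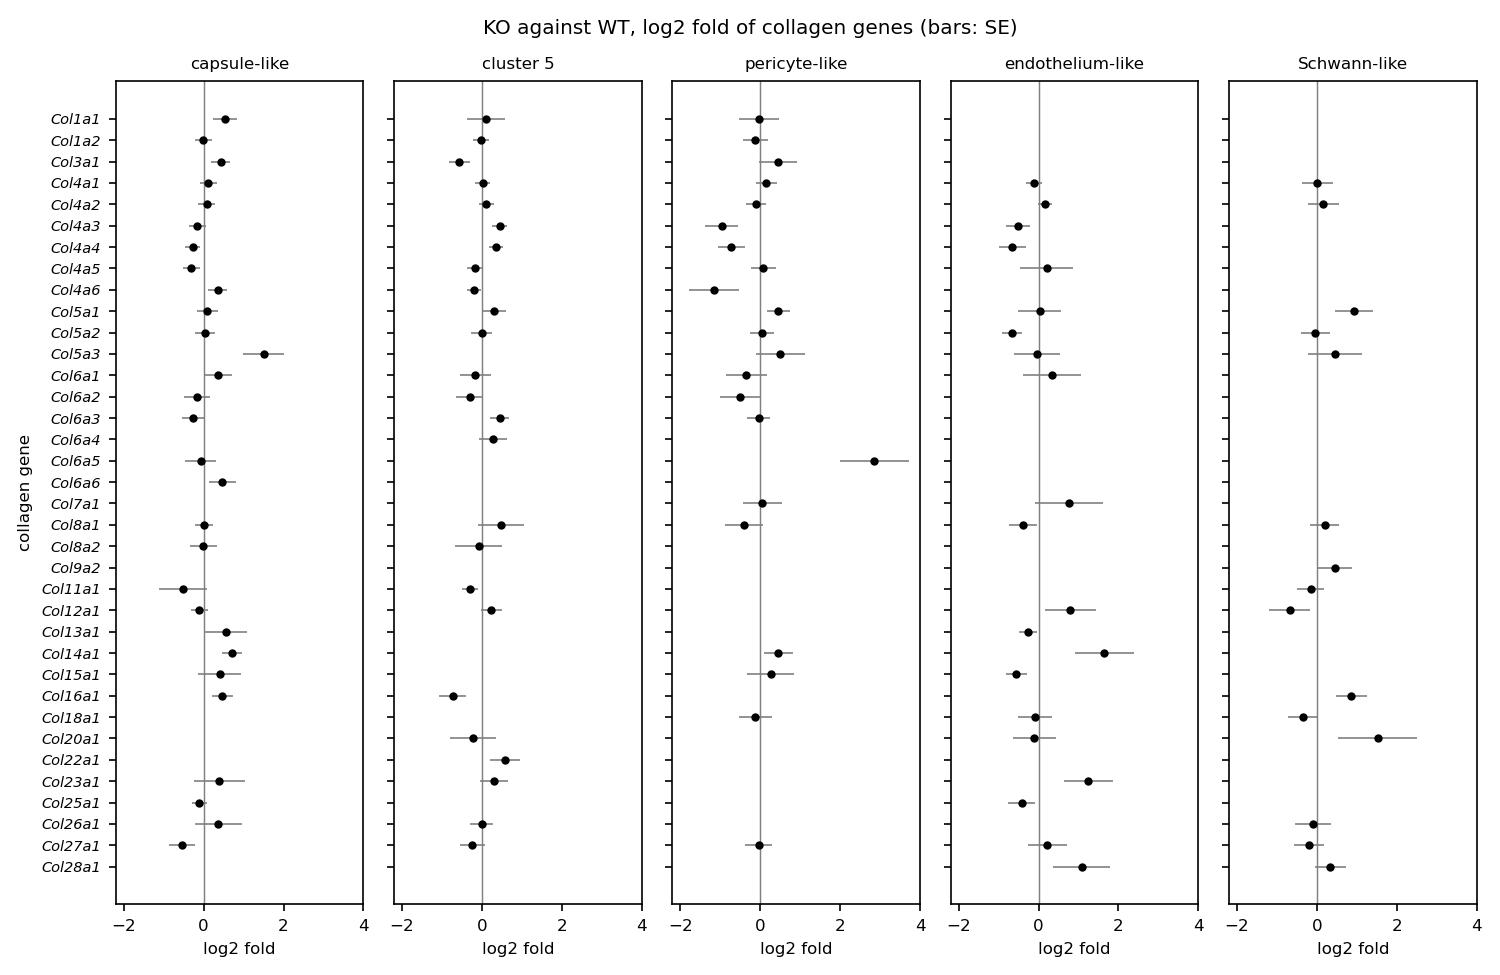
Log2 fold of KO against WT for the collagen genes tested in capsule or fibroblast-like, cluster 5, pericyte or smooth muscle-like, endothelium-like and Schwann or sustentacular-like nuclei; points are edgeR estimates and bars their SE, with the line at 0. Of the 112 points 105 lie within 1 of the line, and the farthest, Col6a5 in the pericyte panel, did not pass the test after adjustment.

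The endocrine classes gave no call either. In zona fasciculata-like nuclei, 19 of the 44 genes passed the filter on low counts, 0 had an adjusted p under 0.05 (against 0% of all genes tested) and 2 had an unadjusted p under 0.05 (against 2.19%). Col7a1 had a log2 fold of 1.16 ± 0.47, Col5a3 0.54 ± 0.22 and Col5a1 0.56 ± 0.31. In X-zone or inner cortex-like nuclei, 11 of the 44 genes passed the filter on low counts, 0 had an adjusted p under 0.05 (against 0% of all genes tested) and 4 had an unadjusted p under 0.05 (against 3.01%). Col5a3 had 0.95 ± 0.27, Col5a1 0.96 ± 0.33 and Col25a1 -0.92 ± 0.39. Both KO libraries were above the 3 WT libraries for Col5a3 in both classes, as the values above show, and the adjusted p by edgeR was 1.00 and 0.999. In zona glomerulosa-like nuclei, 19 of the 44 genes passed the filter on low counts, 0 had an adjusted p under 0.05 (against 0.465% of all genes tested) and 5 had an unadjusted p under 0.05 (against 11.5%). Here the background of low p-values was the highest of any class. Col6a1 was at 16.6 and 13.1 CPM (KO) and 8.72, 4.97 and 5.17 CPM (WT), with a log2 fold of 1.07 ± 0.33 and an edgeR adjusted p of 0.237. Col1a2 had 2.01 ± 0.67 and Col5a3 1.19 ± 0.40. In cluster 3, 18 of the 44 genes passed the filter on low counts, 0 had an adjusted p under 0.05 (against 0.00929% of all genes tested) and 2 had an unadjusted p under 0.05 (against 4.75%). Col4a6 had 2.04 ± 0.74 on 41 UMIs, Col27a1 0.83 ± 0.38 and Col5a1 0.57 ± 0.28. In chromaffin-like nuclei, 15 of the 44 genes passed the filter on low counts, 0 had an adjusted p under 0.05 (against 0% of all genes tested) and 2 had an unadjusted p under 0.05 (against 5.25%). Col7a1, whose libraries are given above, had 0.71 ± 0.21 (edgeR adjusted p = 0.901), Col14a1 2.28 ± 0.79 and Col4a3 0.83 ± 0.38.

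In adipocyte-like nuclei, 9 of the 44 genes passed the filter on low counts, 0 had an adjusted p under 0.05 (against 0.253% of all genes tested) and 0 had an unadjusted p under 0.05 (against 7.48%). Col27a1 had a log2 fold of -0.77 ± 0.36, Col5a2 -1.66 ± 0.81 and Col12a1 1.2 ± 0.65. Col12a1 was called without WT replicate 3, at 2.37 (edgeR adjusted p = 0.00055), and Col4a1 without KO replicate 1, at -2.60 (edgeR adjusted p = 0.0346). In macrophage-like nuclei, 5 of the 44 genes passed the filter on low counts, 0 had an adjusted p under 0.05 (against 0.0699% of all genes tested) and 0 had an unadjusted p under 0.05 (against 5.07%). Col15a1 had -0.72 ± 0.54, Col4a1 0.54 ± 0.50 and Col14a1, the leading collagen of that class, 0.22 ± 0.23. In T or NK cell-like nuclei no collagen gene passed the filter.

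Over all nuclei most collagen folds lay above 0, without a call. In all nuclei, 41 of the 44 genes passed the filter on low counts, and 0 had an adjusted p under 0.05 (against 0% of all genes tested). An unadjusted p under 0.05 was found for 7 of the 41, or 17.1% (against 7% of all genes). Of the tested genes, 33 had folds above 0, with a median log2 fold of 0.26 against 0.01 for all genes, and the 3 of smallest p were Col6a6 at 1.10 ± 0.30, Col7a1 at 0.83 ± 0.29 and Col4a6 at 0.62 ± 0.22. In such sums more nuclei of a class and more RNA per nucleus cannot be told apart. The share of nuclei in the capsule or fibroblast-like, pericyte or smooth muscle-like and cluster 5 populations together was 11.8 and 23.9% (KO) and 9.70, 14 and 18.3% (WT), and cluster 5 alone was 4.31 and 14.03% (KO) and 2.19, 5.60 and 7.81% (WT). KO replicate 2 was the highest library in both, and KO replicate 1 lay within the WT range. Within single classes the median collagen fold varied. It was 0.07 in capsule or fibroblast-like nuclei, -0.0039 in cluster 5, -0.04 in endothelium-like nuclei and -0.03 in the pericyte or smooth muscle-like class. In the cortex it was 0.42 in X-zone or inner cortex-like (8 of 11 genes above 0), 0.37 in zona fasciculata-like (15 of 19) and 0.36 in zona glomerulosa-like nuclei (12 of 19), and 0.29 in cluster 3 (14 of 18). The glial median was 0.16, the chromaffin-like 0.09, the macrophage-like 0.05 and the adipocyte-like -0.16. The medians of all genes in these classes lay between -0.02 and 0.03. The share of all genes with folds above 0 was not counted. The share of tested collagen genes with an unadjusted p under 0.05 is given with that of all genes. It was 36.4% (4 of 11 genes, against 3.01%) in X-zone or inner cortex-like and 26.3% (5 of 19, against 11.5%) in zona glomerulosa-like nuclei. It was 13.3% in chromaffin-like nuclei (against 5.25%), 12% in cluster 5 (against 5.86%), 11.1% in cluster 3 (against 4.75%) and 10.5% in zona fasciculata-like nuclei (against 2.19%). The endothelium-like, mural, capsule or fibroblast-like and glial classes had 9.52, 9.09, 6.9 and 6.67% (against 3.38, 3.15, 4.1 and 3.86%). Adipocyte-like and macrophage-like nuclei had 0% (against 7.48 and 5.07%). The part of nuclear shares in the fold over all nuclei was not tested.

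Whether the KO effect differed between capsule or fibroblast-like and endothelium-like nuclei was tested directly, as an interaction in edgeR over both classes. Of 32 collagen genes tested, 0 passed at an adjusted p under 0.05 (against 0.127% of 10221 genes) and 4 had an unadjusted p under 0.05 (against 4.19%). These were Col5a2, whose log2 fold was 0.77 ± 0.30 higher in the capsule or fibroblast-like class, Col6a2 with a difference of -2.74 ± 1.12, Col5a3 with 1.81 ± 0.76 and Col15a1 with 1.02 ± 0.46. Col6a2 had not passed the filter on low counts in endothelium-like nuclei alone. The 2 endothelial libraries with at least 20 UMIs of Col6a1 and Col6a2 held 5 of Col6a2. Its fold within capsule or fibroblast-like nuclei was -0.16 ± 0.33. Col15a1 was called without KO replicate 2, at 2.61, where KO replicate 1 is set against WT replicate 1 alone. It was also called without WT replicate 3, at 1.36 (edgeR adjusted p = 0.00956). Col5a3 was called without WT replicate 3, at 2.59 (edgeR adjusted p = 0.0288).

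The partner lists gave no call between KO and WT either. Of their genes 65 were tested in capsule or fibroblast-like nuclei, 59 in cluster 5, 52 in pericyte or smooth muscle-like, 61 in endothelium-like and 19 in glial nuclei, and in each class 0 were higher and 0 lower at an adjusted p under 0.05. The share of all genes called in these classes was 0, 0.0123, 0, 0.00949 and 0%. Unadjusted p-values under 0.05 numbered 3 in capsule or fibroblast-like nuclei (against 4.1% of all genes), 5 in cluster 5 (against 5.86% of all genes), 2 in the pericyte or smooth muscle-like class (against 3.15% of all genes), 3 in endothelium-like nuclei (against 3.38% of all genes) and 1 in glial nuclei (against 3.86% of all genes). In zona glomerulosa-like nuclei 55 were tested, 0 were called (against 0.465% of all genes) and 11 had an unadjusted p under 0.05 (against 11.5%). Of all classes the smallest adjusted p belonged to P3h2 there, at 29.5 and 49.1 CPM (KO) and 64.1, 103 and 68.3 CPM (WT), with a log2 fold of -0.98 ± 0.21 and an edgeR adjusted p of 0.0687. Both KO libraries were below the 3 WT libraries.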

How the data were processed

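Single-nucleus RNA was measured in 6 libraries. The deposited values are raw UMI counts per gene and barcode, made by the authors with Cell Ranger, per the file headers (version 4.0.0 for KO and WT replicate 1, 3.1.0 for the others). The submitters' processing notes also name Seurat and the mm10 build. The handling of introns, shared reads and strand is not known here.

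Nuclei with at least 300 genes and at most 5% mitochondrial UMIs were kept (48 of 21724 barcodes were removed), and doublets were marked with Scrublet in scanpy 1.11.5 at an expected 0.8% per 1000 barcodes (641 removed). Over the 30406 shared genes, 2000 variable genes without collagens gave 30 components, corrected for library by the Harmony algorithm in numpy, 20 neighbours and 23 Leiden clusters at resolution 0.8. Names needed 3 or more markers from 1 list, each in 10% or more of a cluster's nuclei with a log2 fold of 1 or more over the rest. B or plasma cell-like, mesothelium-like and hepatocyte-like nuclei were too few to test. The unassigned library entered the clustering, and KO against WT fits only as an alternative, once as KO and once as WT.

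Counts were summed per class and library and tested in edgeR 4.0.16 (TMM factors, filterByExpr, glmQLFit, glmQLFTest, a term for the annotation, Benjamini-Hochberg over all genes, two-sided), with the fit checked on simulated counts. Alternatives covered DESeq2 1.42.0, its size factors, filters, doublets, resolution, the annotation term, the unassigned library and each replicate left out. Values per library are given for genes with a mean of at least 50 CPM in a class; for KO against WT, genes with an adjusted p under 0.05, or else the 3 of smallest p per class. Partner genes, cluster genes, P3h2 and genes called only with a replicate left out were named after their values were seen. Members and lists were chosen with earlier results of these data known. Promoters were read from RefSeq windows on GRCm38.p6, in which 35 of the 44 genes matched, and starts from GENCODE M21.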

Additional observations from a re-analysis of the deposited data

Results flagged for a closer look

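Collagen RNA was also read in classes too small for the comparison of KO and WT, above the 17.6 CPM that 3 UMIs would give in mesothelium-like nuclei. There were 77 mesothelium-like nuclei in the KO and WT libraries, with 5 in KO replicate 1 and 4 in WT replicate 1. Col3a1 was at 553 CPM (94 UMIs, 95% exact Poisson interval 447 to 677), summed over the 5 libraries. Col4a6 was at 400.0 CPM (68 UMIs, 95% exact Poisson interval 311 to 507) and Col4a5 at 371 CPM (63 UMIs, 95% exact Poisson interval 285 to 474), so both genes of this head-to-head pair were read there. Col14a1 was at 294 CPM (50 UMIs, 95% exact Poisson interval 218 to 388). Intervals cover counting error only. Hepatocyte-like nuclei numbered 46, of which 45 were in KO replicate 1, and held Col18a1 at 539 CPM (332 UMIs, 95% exact Poisson interval 482 to 600.0), against 75.0 CPM in zona fasciculata-like nuclei.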

How the results depend on the processing

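No paired analysis was possible because the labels carry no replicate numbers, and the numbers used follow accession order. Without leaving out a library, all 154 alternative counts of collagen genes called in a class were 0, as in the main fits, under DESeq2, its size factors, no filter on low counts, no annotation term, doublets kept, a minimum of 1000 genes, other resolutions, collagen genes in the clustering, the unassigned library as KO or as WT, or fits within clusters (added after seeing the data). Leaving out each replicate gave 0 to 2 in capsule or fibroblast-like nuclei, 0 to 1 in adipocyte-like, cluster 5 and endothelium-like nuclei, 0 to 2 for the interaction and 0 in the other classes. Where 1 library of an arm remains, it is assumed to vary like the others.

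Of 600 alternative folds, 588 kept sign and side of the threshold, 5 gained a call (given above) and 7 changed sign. Those were Col14a1 and Col4a1 in macrophage-like nuclei (-0.0375 with at least 1000 genes and -0.0145 with the unassigned library as KO), Col3a1 in capsule or fibroblast-like nuclei (-0.11 in coarser clusters), Col16a1 in glia (-0.0615 without KO replicate 1 and -0.00364 without WT replicate 1, of a range up to 1.38) and Col15a1 in endothelium-like nuclei (0.30 in cluster 8 and 0.61 in cluster 11). The Col16a1 values come from the same contrast of libraries. The cause of the changes of sign was not tested.

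The count of genes highest in a stromal, mural or endothelial class was 25 and stayed between 23 and 28. Of 149 alternative levels, 141 moved by less than 1 SD, and 6 of the other 8 were in the coarser clustering. Among the 13 classes depth is lowest in T or NK cell-like and glial nuclei, where 3 UMIs over the 5 libraries amount to 5.49 and 5.03 CPM. The cortical gene Cyp11a1 was also read outside the cortex, at 65.3 ± 36.8 CPM in glial nuclei and 51.3 ± 11.1 CPM in chromaffin-like cluster 6. The source of such low levels was not tested.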
